A study of Mus musculus with 60 samples.

Results

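The 8 genes described here encode transporters that carry amino acids across the cell membrane: Slc7a5, Slc3a2, Slc1a5, Slc1a4, Slc7a1, Slc7a11, Slc38a2 and Slc6a19. They were taken by name from the array annotation, and 17 probe sets carried one of these symbols as their single gene symbol, of 45101 probe sets and 18193 named genes in all. For each gene the probe set with the widest interquartile range over the arrays stood for the gene, and the others are given beside it. All 8 of these probe sets passed the filter on spread.

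Pancreatic islets of pIns-MYCERTAM mice were profiled on Affymetrix mouse arrays. The transgene places MYC, fused to a mutant hormone-binding part of the oestrogen receptor, under the insulin promoter, so that 4-hydroxytamoxifen turns MYC on in beta cells. All animals were transgenic males on the CBA-C57BL/6 background. Their age is stated both as 8 to 12 weeks and, in the treatment protocol, as 3 months. MycON mice received 1 mg of 4-hydroxytamoxifen by daily injection into the abdominal cavity and MycOFF mice received peanut oil. Within each, mice received exendin-4 (exenatide, which activates the GLP-1 receptor) under the skin at 50 µg/kg, given more than once a day, or water, from 2 days before. Islets were cut by laser from frozen pancreas sections at 4, 8, 16, 32 and 72 h. No group without the fusion received 4-hydroxytamoxifen, so effects of the drug and of MYC cannot be told apart.

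Of 60 arrays, the submitters left out 8 for poor reproducibility, and 52 are used here. With water there were 13 MycON and 12 MycOFF arrays, and with exendin-4 there were 12 and 15, which leaves 2 or 3 arrays for each group at a time. The labels call the arrays of a group biological replicates without tying them to named animals, so the p-values measure the spread between these samples. Each value is on a log2 scale whose 0 is the median of that probe set across the 60 arrays. Levels can therefore not be compared between genes, and the islet identity of the samples cannot be checked from absolute levels of marker genes. Cdt1, a replication licensing gene used to check the labels, was higher in MycON islets by 3.67 ± 0.31 (SE) log2 units. The mouse Myc probe set hardly varied and need not read the transgene. In bulk islets fewer cells of a type and less RNA per cell cannot be told apart. One kept array stood apart: in MycOFF exendin-4 at 72 h, replicate 2, Slc1a5 lay at 3.25, Slc3a2 at -3.23, Slc7a5 at -2.51 and Slc6a19 at -2.24, and the mean of 7 stromal markers lay at 3.84. Results that rest on it are given with and without it. Shares of all genes called are those of the fit to 52 arrays, and no share is given for counts without this array.

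Cells import amino acids for protein synthesis, for nitrogen and one-carbon metabolism and for defence against oxidants. Slc7a5 (LAT1) and its heavy chain Slc3a2 (CD98) exchange large neutral amino acids, including leucine, for intracellular glutamine that other carriers bring in, and leucine entry helps to activate mTORC1. Several of these genes are known targets of MYC in proliferating cells or of ATF4, the transcription factor of the amino acid response, which binds composite elements together with C/EBP factors.

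The promoter sequences of 6 of the 8 genes were found in the RefSeq table (assembly GRCm38.p6), as windows of 250 bases before to 50 bases after the start, and Slc7a1 had 2 windows. Searched on both strands were CACGTG, the E-box bound by MYC with MAX, TGATGNAA, a core of the ATF4 and C/EBP element, and TGACGTCA, the cyclic AMP response element. Matches of different motifs did not overlap in these windows. Among all 32851 promoter windows of the same length, 7.15% held CACGTG, 3.97% TGATGNAA and 1.79% TGACGTCA. No window of the transporters held CACGTG or TGACGTCA, and TGATGNAA was found in Slc7a11 and in Slc1a4. Both are shown with the window of Slc7a1 at its outer start, the member with the lowest p for MYC. Capitals mark the matches to TGATGNAA or its reverse complement.
Slc7a11 promoter, chr3:50443564-50443863, minus strand: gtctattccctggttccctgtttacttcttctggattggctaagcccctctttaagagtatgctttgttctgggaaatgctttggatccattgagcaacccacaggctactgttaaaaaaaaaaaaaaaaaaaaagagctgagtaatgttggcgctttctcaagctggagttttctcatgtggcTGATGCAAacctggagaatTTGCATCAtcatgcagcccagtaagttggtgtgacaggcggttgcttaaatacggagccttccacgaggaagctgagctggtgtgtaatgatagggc
Slc1a4 promoter, chr11:20332664-20332963, minus strand: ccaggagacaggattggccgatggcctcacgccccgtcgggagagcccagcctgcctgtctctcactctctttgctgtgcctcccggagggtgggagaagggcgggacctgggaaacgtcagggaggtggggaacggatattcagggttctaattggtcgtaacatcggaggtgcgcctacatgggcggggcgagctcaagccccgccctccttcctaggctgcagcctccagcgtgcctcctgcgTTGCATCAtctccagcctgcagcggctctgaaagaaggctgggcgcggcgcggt
Slc7a1 promoter, chr5:148399855-148400154, minus strand: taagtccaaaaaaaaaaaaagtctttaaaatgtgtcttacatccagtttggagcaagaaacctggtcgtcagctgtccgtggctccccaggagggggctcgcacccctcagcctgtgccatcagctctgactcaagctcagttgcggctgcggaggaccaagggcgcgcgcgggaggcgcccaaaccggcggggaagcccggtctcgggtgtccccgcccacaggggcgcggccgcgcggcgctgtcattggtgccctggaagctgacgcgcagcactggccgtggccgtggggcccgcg
In Slc7a11 the matches were TGATGCAA at position -66 and TTGCATCA at position -47, counted from the annotated start. The single match in Slc1a4 was TTGCATCA at position -4. The windows of Slc38a2 (chr15:96699679-96699978), Slc3a2 (chr19:8713848-8714147), Slc6a19 (chr13:73692587-73692886) and the inner start of Slc7a1 (chr5:148392766-148393065), all on the minus strand, held none of these letters. The windows of Slc7a11, Slc3a2 and Slc6a19 lie at starts inside the spans given below for these genes. The outer ends of these 3 genes were not searched, so the absence of a motif does not extend to them. A match is a description of the sequence and says nothing on binding in islets.

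The first comparison asked how the transporters differed between MycON and MycOFF islets. Slc7a1, which encodes the cationic amino acid transporter CAT1 for arginine, lysine and ornithine, was higher in MycON islets. Slc6a19, which encodes the sodium-coupled neutral amino acid transporter B0AT1, was lower. Over both injections and all 5 times Slc7a1 rose by 0.78 ± 0.12 log2 units, or 1.72-fold (limma adjusted p = 1.6e-05), and Slc6a19 fell by 1.29 ± 0.35, to 0.408 of the MycOFF value (adjusted p = 0.0093). Thus 2 of 8 members passed, beside 15.4% of the 13176 genes tested. One of the 8 passed as higher and 1 as lower, beside 9.93% and 5.48% of all genes. The median difference of the 8 members was 0.16, against -0.03 for all genes. Without the array that stood apart, 4 members passed: Slc1a5 was then higher by 0.19 (adjusted p = 0.0126) and Slc1a4 lower, at -0.45 (adjusted p = 0.0379). The share of all genes without it is not given here. The array was singled out in part by the members' own values, so this count cannot be read as particular to the transporters.

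**Figure D1:**
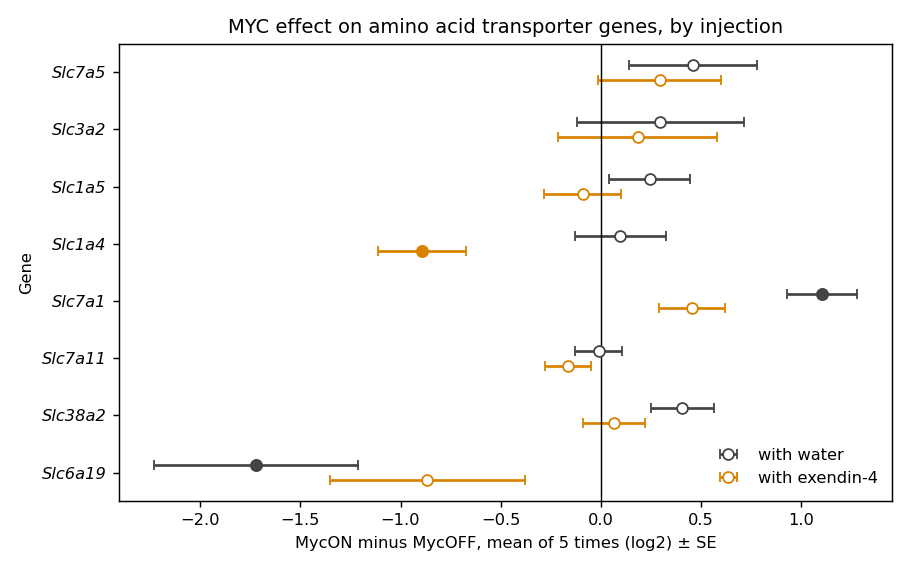
Difference between MycON and MycOFF islets (log2, mean of 5 times) for each transporter gene with its standard error, with water (grey) and with exendin-4 (orange). Filled points passed at an adjusted p under 0.05. With water Slc7a1 passed at 1.10 and Slc6a19 at -1.72, and with exendin-4 Slc1a4 passed at -0.89.

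With water, Slc7a1 values ran from -0.67 to 2.21 (median 0.82) in 13 MycON arrays and from -0.89 to 0.29 (median -0.13) in 12 MycOFF arrays. The ranges overlapped, through MycON arrays of 16 and 72 h. The difference was 1.10 ± 0.17 (2.15-fold, limma adjusted p = 1.0e-04). With exendin-4 the 12 MycON arrays ran from -0.75 to 1.30 (median 0.61) and the 15 MycOFF arrays from -0.84 to 0.76 (median -0.05). This difference of 0.46 ± 0.17 did not pass (adjusted p = 0.11). It passed without any one of 3 exendin-4 arrays, which were MycON 16 h replicate 1, MycOFF 4 h replicate 1 (0.54, adjusted p = 0.0363) and MycOFF 16 h replicate 3. With each injection 5.59% (water) and 5.79% (exendin-4) of all genes passed.

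At 4, 8 and 32 h the Slc7a1 arrays of both MYC states were separate. At 4 h the 5 MycON arrays lay at 1.95, 2.21 and 1.42 (water) and at 0.74 and 0.86 (exendin-4). The 6 MycOFF arrays lay at -0.10, -0.09 and -0.11 (water) and at 0.65, -0.84 and -0.51 (exendin-4). Every MycON array was above every MycOFF array, and the MycON arrays with water were higher than those with exendin-4. The difference of 1.50 ± 0.26, or 2.82-fold, passed (limma adjusted p = 0.00059). At 8 h the 6 MycON arrays ran from 0.32 to 1.28 and the 5 MycOFF arrays from -0.23 to 0.31, again with no overlap. The difference of 0.87 ± 0.26 stood just outside the threshold (adjusted p = 0.0527) and passed without any one of 14 of the 52 arrays. At this time 0 of 8 members passed limma's adjusted threshold, beside 3.93% of all genes. An unadjusted p under 0.05 was found for 2 of 8 members and for 1997 of the 13176 genes tested.

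At 16 h MycON arrays lay between -0.61 and 0.48 and MycOFF arrays between -0.49 and 0.76. The ranges overlapped almost wholly, with a difference of 0.13 ± 0.29 (limma adjusted p = 0.84). By limma 0 of 8 members passed at 16 h, beside 2.28% of all genes. An unadjusted p under 0.05 was found for 0 members and for 2161 of the 13176 genes tested. At 32 h the 4 MycON arrays lay at 0.72 and 1.65 (water) and at 0.78 and 1.30 (exendin-4), and the 6 MycOFF arrays between -0.83 and 0.26. The ranges were separate once more, and the difference of 1.23 ± 0.28 passed (adjusted p = 0.0078), 1 of 8 members beside 3.31% of all genes. It no longer passed without MycON exendin-4 32 h replicate 2 (1.10, adjusted p = 0.0664) or MycON water 32 h replicate 3 (1.00, adjusted p = 0.105). At 72 h both ranges overlapped, from -0.75 to 0.49 in MycON and from -0.89 to -0.11 in MycOFF. The share of all genes with MycON arrays wholly above MycOFF arrays was 2.07% at 4 h, 3.29% at 8 h and 5.27% at 32 h. The test for a change of the MYC effect over time did not pass for Slc7a1 (moderated F test, adjusted p = 0.0857).

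**Figure D2:**
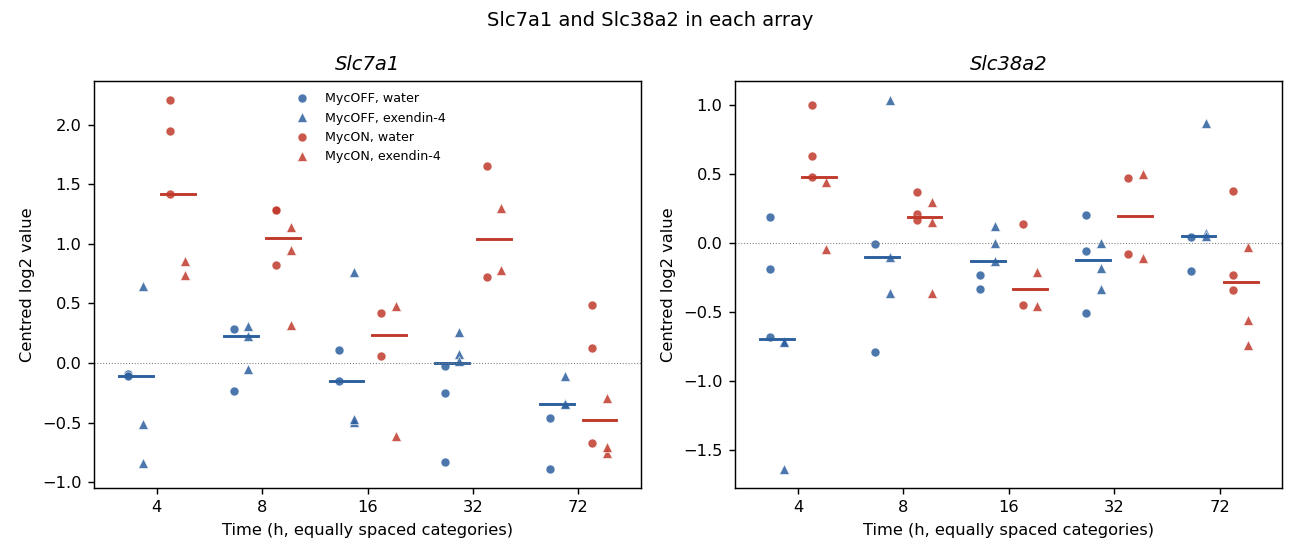
Centred log2 values of Slc7a1 (left) and Slc38a2 (right) in each of 52 arrays by time in hours, for MycOFF (blue) and MycON (red) with water (circles) or exendin-4 (triangles), and horizontal bars for the median of each MYC state. MycON arrays of Slc7a1 lie wholly above MycOFF arrays at 4, 8 and 32 h, and of the 5 times the medians of Slc38a2 are farthest apart at 4 h.

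Slc7a1 was read by 3 probe sets. Probe set 1454991_at stood for the gene, and 1454992_at moved the same way, by 0.59 ± 0.14 over both injections (limma adjusted p = 0.0051), and at 4 h by 1.10 ± 0.30 (adjusted p = 0.0669). The other, 1421533_at, hardly varied (interquartile range 0.0403 against 1.04) and differed by -0.02 ± 0.02. The gene lies on chromosome 5, from 148327410 to 148399904 in GRCm38.p6.

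Slc38a2 encodes SNAT2, a sodium-coupled carrier of small neutral amino acids that cells raise when amino acids are scarce. It differed between MYC states at 4 h. With water the MycON arrays then lay at 0.48, 1.00 and 0.63, and exendin-4 gave -0.04 and 0.44. The MycOFF arrays of water lay at -0.19, 0.19 and -0.68 and those of exendin-4 at -0.71, -1.64 and -0.72. MycON arrays were the higher within each injection, and only the MycON array at -0.04 fell among the MycOFF arrays. Of all genes, 8.99% with water and 7.41% with exendin-4 had MycON arrays wholly above at 4 h. The difference of 1.08 ± 0.24, or 2.11-fold, passed (limma adjusted p = 0.0076). Without MycON exendin-4 4 h replicate 2 it was 0.96 and missed the threshold (adjusted p = 0.0739).

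At 4 h, 2 of 8 members passed, both as higher, beside 2.29% of all genes in either direction and 1.58% as higher. Later the Slc38a2 differences were 0.24 at 8 h, -0.10 at 16 h, 0.34 at 32 h and -0.38 at 72 h, and none passed. With exendin-4 the MycON arrays lay wholly below the MycOFF arrays at 16 h (as for 7.57% of all genes) and at 72 h (as for 3.44%). Over all times the difference was 0.24 ± 0.11 (limma adjusted p = 0.16). The other probe sets, 1429593_at and 1429594_at, showed no such rise, with differences of -0.03 ± 0.17 and -0.06 ± 0.40 at 4 h. The 4 h result therefore rests on 1 of 3 probe sets. Slc38a2 lies on chromosome 15, from 96687392 to 96699728.

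Slc1a4 encodes ASCT1, an exchanger of alanine, serine, cysteine and threonine. Its MYC difference changed over time. MycON minus MycOFF was 0.85 ± 0.34 at 4 h, -0.07 at 8 h, -0.44 at 16 h, -0.74 at 32 h and -1.59 ± 0.34 at 72 h. Of these the 72 h value passed (0.333 of the MycOFF value, limma adjusted p = 0.0097) and the 4 h value did not (adjusted p = 0.26). The change over time passed limma's moderated F test (adjusted p = 0.0319), as did 1.59% of all genes, and of the 8 members only Slc1a4 did. That call was lost without any one of 12 of the 52 arrays (adjusted p up to 0.12). At 8 h the MycON arrays lay wholly above the MycOFF arrays with water, as for 26.4% of all genes, and wholly below with exendin-4, as for 16.8%.

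At 72 h the MycON arrays of Slc1a4 lay at -1.25, -1.07 and -0.05 (water) and at -1.35, -0.88 and -1.49 (exendin-4). The MycOFF arrays lay at -0.40 and 0.36 (water) and at 2.02, 0.17 and 1.29 (exendin-4). With exendin-4 the groups were separate, as for 3.44% of all genes, and with water the MycON array at -0.05 lay between both MycOFF arrays. The difference missed the threshold without MycOFF water 72 h replicate 3 (-1.40, adjusted p = 0.111) and was -1.83 (limma adjusted p = 0.00129) without the array that stood apart. At 72 h, 2 of 8 members passed, both as lower, beside 1.38% of all genes and 0.228% as lower.

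With exendin-4, averaged over time, Slc1a4 ran from -1.49 to 1.33 (median -0.19) in 12 MycON arrays and from -0.46 to 2.02 (median 0.75) in 15 MycOFF arrays. The ranges overlapped but the medians lay on opposite sides of 0. The difference of -0.89 ± 0.22 passed (limma adjusted p = 0.0109) and was the only member to do so with exendin-4. Without MycON exendin-4 4 h replicate 2 it was -0.75 (adjusted p = 0.053). With water the difference was 0.10 ± 0.23, with MycON arrays from -1.25 to 1.73 and MycOFF arrays from -0.62 to 1.12. The interaction of MYC and exendin-4 was -0.99 ± 0.32 for Slc1a4 and did not pass after adjustment (adjusted p = 1).

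The other Slc1a4 probe sets did not vary. Their interquartile ranges were 0.0601 and 0.054 against 0.949, and their differences over both injections were -0.02 and 0.03. The Slc1a4 results rest on probe set 1456003_a_at alone. The gene lies on chromosome 11, from 20302180 to 20332713.

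**Figure D3:**
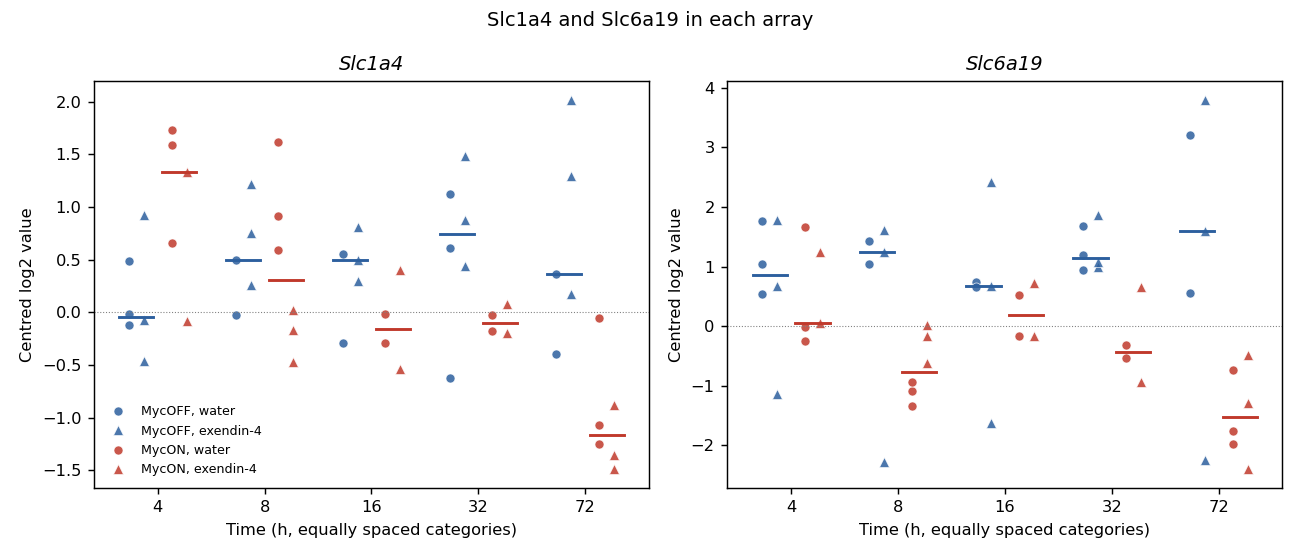
Centred log2 values of Slc1a4 (left) and Slc6a19 (right) in each of 52 arrays by time in hours, for MycOFF (blue) and MycON (red) with water (circles) or exendin-4 (triangles), and horizontal bars for the median of each MYC state. The MycON median of Slc1a4 goes from 1.33 at 4 h to -1.16 at 72 h, and the MycON median of Slc6a19 lies below the MycOFF median at all 5 times.

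Slc6a19 had the widest spread of the members (interquartile range 1.85, the 98.9th percentile of named genes). With water its 13 MycON arrays ran from -1.98 to 1.66 (median -0.53) and its 12 MycOFF arrays from 0.54 to 3.20 (median 1.05). All MycOFF arrays with water lay above 0 and most MycON arrays below. The difference of -1.72 ± 0.51 passed (limma adjusted p = 0.0378), a call lost without any one of 15 of the 52 arrays (adjusted p up to 0.0961). With exendin-4 the 12 MycON arrays ran from -2.40 to 1.24 (median -0.16) and the 15 MycOFF arrays from -2.27 to 3.80 (median 1.08). The difference of -0.87 ± 0.49 did not pass (limma adjusted p = 0.36). Without the array that stood apart it was -1.20 ± 0.42 and again did not pass (limma adjusted p = 0.0877).

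The MycON medians of Slc6a19 were 0.05, -0.77, 0.19, -0.42 and -1.52 at 4, 8, 16, 32 and 72 h, and the MycOFF medians 0.86, 1.25, 0.67, 1.14 and 1.59. At 32 h the 4 MycON arrays, from -0.93 to 0.65, lay wholly below the 6 MycOFF arrays, from 0.95 to 1.87, as for 4.31% of all genes. That difference, -1.58 ± 0.80, did not pass (limma adjusted p = 0.36). At 72 h the MycON arrays lay at -0.74, -1.76 and -1.98 (water) and at -2.40, -0.48 and -1.29 (exendin-4). The MycOFF arrays lay at 3.20 and 0.56 (water) and at 1.59, -2.24 and 3.80 (exendin-4). Every MycON array was below 0, and the MycOFF array at -2.24 is the one that stood apart.

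The 72 h difference of Slc6a19 was -2.91 ± 0.76 (0.133 of the MycOFF value, limma adjusted p = 0.0434). Without the array that stood apart it was -3.73 (adjusted p = 0.00103), and it missed the threshold without any one of 22 other arrays (adjusted p up to 0.191). The 72 h call was kept under 3 of 7 alternative settings and lost with the array median subtracted (limma adjusted p = 0.0547), all 60 arrays (0.907), no filter (0.0638) and the replicate block (0.0572). The call with water was kept under 4 of 8 and lost with all 60 arrays (adjusted p = 0.365), no filter (0.0572), the mean of probe sets (0.0528) and the replicate block (0.0536). The second probe set, 1428595_at, was also lower, at -0.71 ± 0.22 over both injections (limma adjusted p = 0.0328). Slc6a19 lies on chromosome 13, from 73679745 to 73700780.

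Marker genes of other cells moved with these differences. At 72 h 6 of 10 immune markers were higher in MycON islets, beside 1.38% of all genes called in either direction. Among them were Cd68, a macrophage marker, at 4.18 ± 0.59 (limma adjusted p = 4.8e-05), Lyz2 at 3.29 ± 0.68 and C1qb at 3.17 ± 0.75. Stromal markers at 72 h were above 0 for 7 of 7 genes, beside 43.8% of all genes. Of the 7, 1 passed, the matrix proteoglycan gene Lum at 1.76 ± 0.41. When the array that stood apart was left out 2 of the 7 passed, and the median of the 7 went from 0.74 to 1.62. The mean of the 10 immune markers ran from -0.32 to 3.47 in the 6 MycON arrays of 72 h and from -0.67 to 0.60 in the 5 MycOFF arrays. The MycON array lowest in immune markers, water replicate 3 at -0.32, held the highest MycON value of Slc1a4 at that time (-0.05) and a Slc6a19 value of -1.98. Across the 20 group means Slc1a4 correlated with the immune mean at -0.76 and with the stromal mean at -0.48. Its correlations with the alpha cell mean (-0.59) and with the delta and PP cell mean (-0.57) had the same sign, and that with the beta cell mean was 0.14. These values describe groups that share arrays, processing and time.

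Over both injections 3 of 8 beta cell markers were lower in MycON islets, beside 5.48% of all genes: Ucn3, a hormone of mature beta cells, at -1.48 ± 0.33, the beta cell transcription factor Pdx1 at -0.60 ± 0.13 and the glucose transporter gene Slc2a2 at -0.59 ± 0.17. At 72 h the mean of the 8 markers ran from -1.17 to 0.11 in MycON arrays and from -0.66 to 1.39 in MycOFF arrays, and 0 of the 8 genes passed limma's adjusted threshold (median -0.51). Without the array that stood apart 4 of 8 were lower over both injections, and 3 of 8 at 72 h (median -0.79). Across 20 group means Slc6a19 correlated with the beta cell mean at 0.57, with the immune mean at -0.57 and with the stromal mean at -0.40, and with Ucn3 at 0.827. Acinar markers, from the exocrine tissue around the islets, were above 0 over both injections for 7 of 7 genes tested (median 0.40). Of all genes 44.9% were above 0, and no acinar marker passed. Other members had correlations of like size. With the mean of endothelial markers Slc38a2 correlated at -0.63, Slc1a5 at -0.49 and Slc7a1 at -0.42. Slc7a5 correlated with the stromal mean at -0.59. With water Kdr, 1 of 4 endothelial markers tested, was lower (-1.05 ± 0.29, limma adjusted p = 0.0234), beside 5.59% of all genes. The other endothelial markers did not pass. The part of these cell types in the transporter values was not tested.

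Slc7a5 (LAT1), the light chain that carries leucine and other large neutral amino acids, did not pass in any comparison. With water its MycON arrays ran from -2.47 to 2.23 (median 0.40) and its MycOFF arrays from -1.53 to 1.42 (median -0.38), and with exendin-4 from -1.02 to 1.49 (median 0.40) and from -2.51 to 1.33 (median 0.48). The ranges overlapped with both injections. The difference over both was 0.38 ± 0.22 (limma adjusted p = 0.28).

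Of the single times Slc7a5 differed most at 8 h, by 1.01 ± 0.48 (2.02-fold, limma adjusted p = 0.30). The MycON arrays of 8 h lay at 1.15, 2.23 and 0.55 (water) and at 0.19, 1.38 and 0.61 (exendin-4). The MycOFF arrays lay at -0.90 and 1.10 (water) and at 0.02, -1.34 and 1.08 (exendin-4). MycOFF arrays spread over both sides of 0 while all MycON arrays lay above it, and 3 of 6 MycON arrays were above every MycOFF array. In MycOFF islets the median of Slc7a5 was 0.97 at 4 h and -0.80 at 72 h. The change over time without MYC did not pass limma's moderated F test (unadjusted p = 0.00995, adjusted p = 0.993), which 0.00759% of all genes passed. The gene lies on chromosome 8, from 121881146 to 121907686, with 1 probe set.

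Slc3a2 encodes the heavy chain that brings Slc7a5, Slc7a11 and related light chains to the membrane. Its MycON arrays ran from -1.34 to 1.37 with water (median 0.30) and from -0.83 to 0.84 with exendin-4 (median 0.05). Its MycOFF arrays ran from -2.38 to 1.50 (median -0.20) and from -3.23 to 1.44 (median 0.24). Over all times the ranges overlapped with each injection, and MycOFF arrays spread wider, with SDs of 1.14 and 1.21 against 0.83 and 0.56. The difference over both injections was 0.24 ± 0.29 (limma adjusted p = 0.61) and 0.09 without the array that stood apart. Across the 20 group means Slc3a2 and Slc7a5 correlated at 0.51. Slc3a2 lies on chromosome 19, from 8706882 to 8723369, with 1 probe set.

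Slc1a5 encodes ASCT2, the exchanger that brings in glutamine. Its probe set varied little, with an interquartile range of 0.13 and all but one of the kept arrays between -0.43 and 0.57. With water the MycON arrays ran from -0.04 to 0.57 (median 0.00) and the MycOFF arrays from -0.43 to 0.03 (median -0.07). MycON arrays were on the high side with overlap near 0. At 4 h the MycON arrays with water lay at 0.32, 0.44 and 0.57 and the MycOFF arrays at -0.43, -0.07 and -0.07, without overlap, as for 8.99% of all genes. The difference at 4 h over both injections was 0.37 ± 0.30 (limma adjusted p = 0.75).

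In MycOFF exendin-4 the Slc1a5 arrays ran from -0.17 to 3.25 (median -0.02), the highest being the array that stood apart. Over both injections Slc1a5 differed by 0.08 ± 0.14 (limma adjusted p = 0.75) with that array and by 0.19 (adjusted p = 0.0126) without it. The call thus turned on 1 array. With water alone the difference was 0.24 with or without it, and it passed without it (adjusted p = 0.045). The other probe set, 1440379_at, differed by 0.03 ± 0.04. Slc1a5 lies on chromosome 7, from 16781334 to 16798274.

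Slc7a11 encodes xCT, which takes up cystine in exchange for glutamate and feeds glutathione synthesis. Its probe set varied little as well (interquartile range 0.172), with most arrays near 0 and single high arrays in several groups: 0.84 in MycON exendin-4 at 4 h, 0.69 in MycON water at 8 h and 1.31 in MycOFF exendin-4 at 16 h. With water the medians were -0.03 in MycON and -0.01 in MycOFF islets, and under exendin-4 they were -0.02 and 0.06. These lie within 0.1 log2 units of one another and the ranges overlapped. The difference over both injections was -0.09 ± 0.08 (limma adjusted p = 0.52), and the other probe set differed by 0.04 ± 0.04. Slc7a11 lies on chromosome 3, from 50364936 to 50499087.

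**Figure D4:**
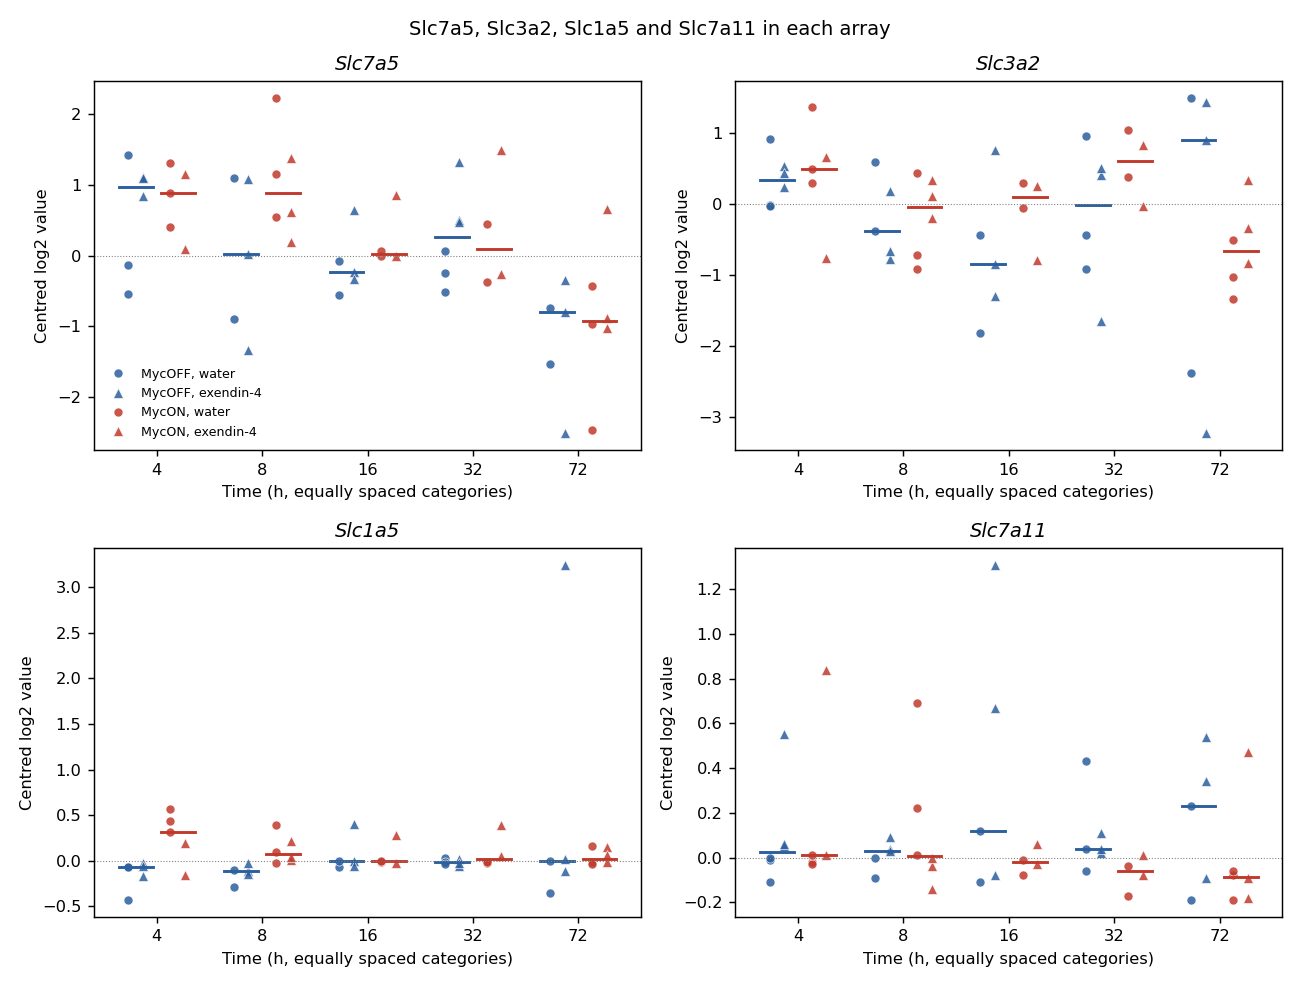
Centred log2 values of Slc7a5, Slc3a2, Slc1a5 and Slc7a11 in each of 52 arrays by time in hours, for MycOFF (blue) and MycON (red) with water (circles) or exendin-4 (triangles), and horizontal bars for the median of each MYC state. The vertical scales differ between panels; the Slc1a5 point at 3.25 and the Slc3a2 point at -3.23 at 72 h are the same MycOFF exendin-4 array.

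The second comparison asked what exendin-4 did to these genes. No member passed, in MycOFF or in MycON islets, by limma at an adjusted p under 0.05, where 0.228% and 0.0683% of all genes passed. At an unadjusted p under 0.05, where 5% is expected by chance, lay 1009 of 13176 genes in MycOFF islets and 882 in MycON islets. So did 1 of 8 members in each, a count that cannot be read as particular to the transporters. The members were Slc1a4 without MYC (0.53 ± 0.22, unadjusted p = 0.0201, limma adjusted p = 0.51) and Slc7a1 with MYC (-0.48 ± 0.17, unadjusted p = 0.00947, limma adjusted p = 0.45). In MycOFF islets Slc1a4 ran from -0.62 to 1.12 with water and from -0.46 to 2.02 with exendin-4, so that the groups overlapped. For the other members without MYC the exendin-4 differences lay between -0.54 ± 0.49 (Slc6a19) and 0.37 ± 0.31 (Slc7a5). Without the array that stood apart this range was -0.21 ± 0.42 (Slc6a19) to 0.50 ± 0.30 (Slc7a5), Slc1a4 was at 0.63 ± 0.21 (limma adjusted p = 0.36), and again no member passed.

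For the interaction of MYC with exendin-4 0% of all genes and no member passed limma's adjusted threshold. Here 250 of 13176 genes had an unadjusted p under 0.05, fewer than the 5% expected by chance. Among them were 2 of 8 members: Slc1a4 (-0.99 ± 0.32) and Slc7a1 (-0.65 ± 0.24). The MYC difference of Slc7a1 was 1.96 with water and 1.04 with exendin-4 at 4 h, 1.10 and 0.64 at 8 h, and 1.56 and 0.91 at 32 h. It was thus the smaller with exendin-4 at each of these times, by an amount that did not pass the adjusted test.

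Beyond the 8 members, 51 further amino acid transporter genes were listed, and 33 of the 49 on the array were tested. Over both injections 2 were higher and 2 lower in MycON islets, beside 9.93% and 5.48% of all genes. The median was -0.05, against -0.03 for all genes. Slc6a15, a carrier of branched-chain amino acids and proline, was higher by 1.81 ± 0.21 (limma adjusted p = 1.5e-07), and Slc7a6 (y+LAT2), another partner of Slc3a2, by 0.51 ± 0.18 (adjusted p = 0.0441). Slc7a8 (LAT2), also a partner of Slc3a2, was at -0.46 ± 0.14 and the taurine transporter Slc6a6 at -0.39 ± 0.10. The counts were 1 higher and 2 lower without the array that stood apart, and Slc7a6 was then no longer called.

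The transporter calls at single times were few. Of all genes 2.29% passed in either direction at 4 h, 3.93% at 8 h, 2.28% at 16 h, 3.31% at 32 h and 1.38% at 72 h. At 4 h Slc6a15 was higher by 2.47 ± 0.46 (limma adjusted p = 0.0012) and the glycine transporter Slc6a9 by 0.78 ± 0.21 (adjusted p = 0.0377), 2 of the 33. At 8 h Slc6a15 was higher by 2.34 ± 0.46, and Slc7a2, a further cationic amino acid transporter, was lower, at -1.30 ± 0.38 (limma adjusted p = 0.045). At 32 h Slc6a15 was higher by 3.41 ± 0.48 and Slc1a1, a glutamate transporter, by 1.13 ± 0.25. At 72 h the glutamine transporter Slc38a5 was higher by 2.20 ± 0.52 (adjusted p = 0.0193), the 1 call at that time. Without the array that stood apart Slc7a8 was also called at 72 h, at -1.14 ± 0.32 (limma adjusted p = 0.0476). Over both injections Slc6a15 had the largest difference of the 33 transporters and the 8 members.

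In the list of mTORC1 and its amino acid sensing genes 4 of 33 tested were higher and 1 was lower, with a median of 0.01, beside 15.4% of all genes called in either direction. The genes called as higher were not amino acid sensors. They were the translation repressors Eif4ebp1 (0.68 ± 0.18) and Eif4ebp2 (0.61 ± 0.11), which are substrates of mTORC1, its activator Rheb (0.47 ± 0.14) and the kinase Mtor (0.42 ± 0.09, limma adjusted p = 0.00074), and Sesn3, a sestrin that restrains mTORC1, was lower, at -0.41 ± 0.10. The counts were 4 higher and 5 lower without the array that stood apart.

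Of 26 tested genes of the amino acid response 6 were higher and 1 was lower, beside 9.93% and 5.48% of all genes. The median was 0.05. Of these 6, Eif4ebp1 is also counted in the mTORC1 list. Psat1, an enzyme of serine synthesis, was higher by 2.61 ± 0.22 (limma adjusted p = 1.5e-10), the mitochondrial serine hydroxymethyltransferase Shmt2 by 1.05 ± 0.29 and Phgdh, the first enzyme of serine synthesis, by 0.75 ± 0.16. Asns, the asparagine synthetase, was higher by 0.65 ± 0.23 (adjusted p = 0.0488) and the transcription factor Atf3 by 0.40 ± 0.11. Ddit3, which encodes the stress factor CHOP, was lower, at -0.54 ± 0.15. This mean joined unlike values, 0.05 ± 0.21 with water (adjusted p = 0.94) and -1.14 ± 0.20 with exendin-4 (adjusted p = 0.00045). Leaving out the array that stood apart gave 5 higher and 3 lower.

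Of 18 tested aminoacyl-tRNA synthetases, which charge tRNAs with the imported amino acids, 4 were higher and 0 lower by limma. Of all genes 9.93% were higher and 5.48% lower. Above 0 lay 14 of 18, beside 44.9% of all genes. Farsb and Farsa, both chains of the phenylalanine enzyme, were higher by 1.00 ± 0.22 and 0.81 ± 0.23, and Rars and Eprs by 0.66 ± 0.22 and 0.65 ± 0.16. The median of the list was 0.30, against -0.03 for all genes, and 0.24 with 3 higher without the array that stood apart. In the list around cystine and glutathione 3 of 15 were higher, beside 9.93% of all genes. They were Gsr (glutathione reductase, 0.81 ± 0.15), the oxidant-response factor Nfe2l2 (0.78 ± 0.21) and thioredoxin Txn1 (0.70 ± 0.16). Nqo1, a target of Nfe2l2, passed as lower, at -0.38 ± 0.10, beside 5.48% of all genes. The counts of this list were 3 higher and 1 lower without the array that stood apart.

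**Figure D5:**
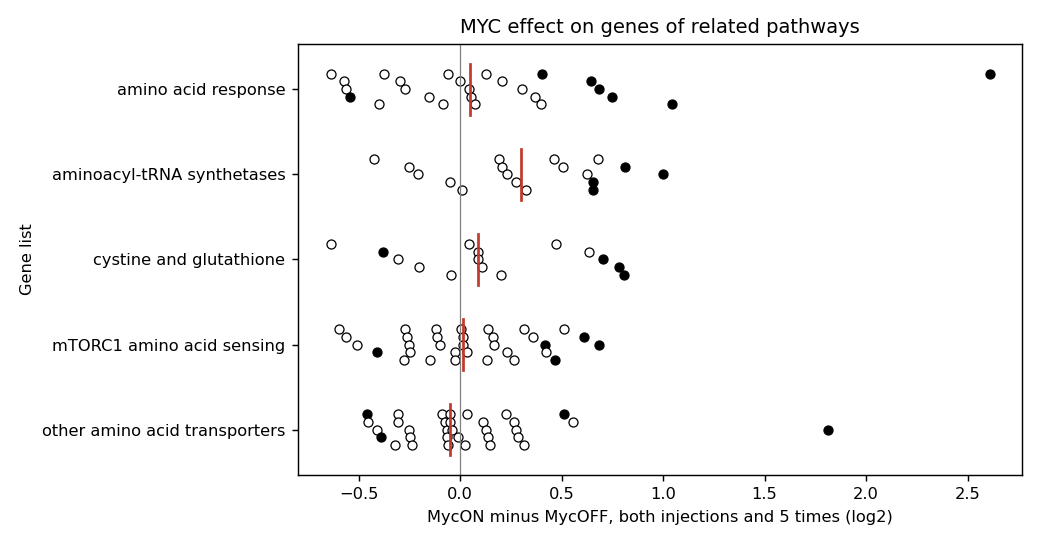
Difference between MycON and MycOFF islets over both injections and 5 times (log2) for each tested gene of 5 lists, the 8 members not included. Black points passed at an adjusted p under 0.05, open points did not, the red line is the list's median and vertical offsets only separate points. The isolated points at the right are Psat1 at 2.61 and Slc6a15 at 1.81.

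The genes whose 20 group means were most like those of each member were named by Pearson correlation, as a description over groups that share processing. For Slc7a1 they were Zmynd19 (0.936), Elovl6 (0.924), an enzyme of fatty acid elongation, and B4galnt4 (0.923). For Slc7a5 they were Rbm17 (0.899), Mfn2 (0.859), which acts in mitochondrial fusion, and Fam207a (0.857). Slc6a19 was most like Pitpnm3 (0.851), Pogk (0.832) and Ucn3 (0.827). Slc38a2 was most like Prkci (0.816), Dkc1 (0.814), a component of the H/ACA ribonucleoprotein, and Mrpl47 (0.796), and Slc1a4 most like N6amt1 (0.804), Cntnap2 (0.786) and Dancr (0.778).

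Slc3a2 was most like Strap (0.855), Timm29 (0.842) and Scgn (0.838). The closest genes to Slc1a5 were Tedc2, Vit and Cxcl13, at 0.843 to 0.817, and to Slc7a11 Krt24, 9530003J23Rik and Ttc23l, at 0.965 to 0.94, and both members vary little apart from single arrays. Between members the highest correlations were those of Slc7a1 with Slc38a2 (0.66) and with Slc7a5 (0.60).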

How the data were processed

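The submitters deposited log2 expression values in which every probe set has a median of 0 over the 60 arrays (tolerance 1.0e-04). MAS5 and GCRMA stand in the submitters' processing notes, with neither their role nor a version. Base 2 is taken from the range of the values (-12.3 to 12.8), since no source used here states it. Centring removes absolute levels, so genes were filtered on spread in place of the mean level planned.

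In the array annotation 34945 probe sets had 1 symbol, 932 had several and 9160 had none. The 64 control probe sets were not used. Genes with an interquartile range at or above the 40th percentile of all probe sets (0.101 log2 units) were tested, 13176 of 18193. A model of 20 group means was fitted to 52 arrays with limma 3.58.1 in R 4.3.3 (32 residual and 2.75 prior degrees of freedom), with Benjamini-Hochberg adjustment over all genes tested and a threshold of 0.05. Effects over several groups weight each time equally, and ± gives the SE. The fit was tested on simulated data. The number of arrays limits the precision.

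The rule named all 8 members, up to 4 genes per further list past the threshold over both injections (8 for other transporters), the 3 most alike genes per member, and Cdt1 and Myc as a check. Marker genes, Sesn3, Asns, Atf3, Ddit3, Slc6a9, Slc38a5, Slc7a2 and Slc1a1 were named after their values were seen. Members and lists were chosen with earlier results of these data known. Alternatives were quantile normalization, subtraction of each array's median, all 60 arrays, no filter, the mean of a gene's probe sets, array weights, a replicate block, only the arrays compared and each array left out. Added after seeing the data were each probe set by itself and the lists and members without 1 array. Sequences and coordinates are from RefSeq tables of GRCm38.p6, and the Slc7a5 and Slc1a5 promoters were not used here. Figures were drawn with matplotlib 3.10.9.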

Additional observations from a re-analysis of the deposited data

Results flagged for a closer look

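The MYC difference of Slc1a4 changed over the 5 times by limma's moderated F test (adjusted p = 0.0319), from 0.85 at 4 h to -1.59 at 72 h.

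In 4 other cases all MycON arrays lay above all MycOFF arrays in one setting and below them in another, and these differences were not tested by themselves. Groups here hold 2 or 3 arrays, and at 8 h 26.4% of all genes had MycON arrays wholly above with water and 16.8% wholly below with exendin-4. For Slc1a4 at 8 h the MYC difference was 0.81 with water and -0.95 with exendin-4, a change of -1.76. For Slc7a11 at 8 h it was 0.35 with water and -0.11 with exendin-4, a change of -0.46. For Slc38a2 with exendin-4 it was 1.23 at 4 h, against -0.33 at 16 h (a change of -1.56) and -0.77 at 72 h (a change of -2.0).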

How the results depend on the processing

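Over both injections and all times, Slc7a1 (0.45 to 1.06) and Slc6a19 (-2.051 to -1.004) kept their direction and passed under all 7 alternatives and without any single array. The number of members past the threshold changed elsewhere, and the cause was not tested. With water (2 members) it was 1 with all 60 arrays, without the filter, with the mean of probe sets and with the replicate block. With exendin-4 (1) it was 0 with all 60 arrays and 2 with array weights. At 4 h (2) it was 1 with all 60 arrays and with the mean of probe sets. At 8 h (0) it was 1 with the mean of probe sets and 2 with array weights. At 32 h (1) it was 0 with all 60 arrays and 2 with array weights. At 72 h (2) it was 1 with the array median subtracted, 0 with all 60 arrays, 1 without the filter and 1 with the replicate block. For the change over time (1) it was 0 with quantile normalization and with all 60 arrays. With all 60 arrays the calls lost were Slc6a19 with water and at 72 h, Slc1a4 with exendin-4, at 72 h and for the change over time, and Slc7a1 at 4 and 32 h. The mean of probe sets lost Slc38a2 at 4 h and Slc6a19 with water. Leaving out each array gave 1 to 3 members with water, 0 to 2 with exendin-4, 2 to 4 over both injections, 1 to 2 at 4 h, 0 to 1 at 8 h, 0 to 1 at 32 h, 1 to 2 at 72 h and 0 to 2 for the change over time, and 0 in the others.

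Taken by themselves, other probe sets had the opposite sign for Slc7a1 (1421533_at: -0.016 with water, -0.024 over both injections, -0.064 at 32 h), Slc1a4 with exendin-4 (1423550_at: 0.052) and Slc38a2 at 4 h (1429593_at: -0.026, 1429594_at: -0.061). Same-numbered arrays of different groups correlated at a median of 0.00492 (from -0.579 to 0.532). Differently numbered arrays correlated at a median of -0.00273 (from -0.621 to 0.621). Pooled over all groups, replicate numbers thus showed no pairing, and pairing within a time or an injection was not tested. With the replicate block Slc6a19 with water was -1.67 (limma adjusted p = 0.0536) and at 72 h -2.88 (adjusted p = 0.0572).

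Counts over all genes also moved by over 1.5 times. With all 60 arrays they went from 737 to 177 (water), 2031 to 1073 (both injections), 302 to 87 (4 h), 518 to 202 (8 h), 301 to 50 (16 h), 436 to 138 (32 h), 182 to 8 (72 h), 209 to 17 (change over time), 1 to 0 (time without MYC), 30 to 6 and 9 to 3 (exendin-4 without and with MYC). Quantile normalization gave 1146 with water, 554 at 4 h, 814 at 8 h, 1102 at 32 h, 358 for the change over time, 2 for time without MYC, and 48 and 19 for exendin-4. Array weights gave 659, 1210, 67, 1709 and 296 at the 5 times, 380 for the change over time and 48 for exendin-4 with MYC. The mean of probe sets gave 323 for the change over time and 49 for exendin-4 without MYC. For exendin-4 without MYC there were 17 genes without the filter and 11 with only the arrays compared, which left 0 for time without MYC, and for exendin-4 with MYC 15 with the block. Quantile normalization moved the share of calls that were higher from 78.8% to 68.6% with exendin-4 and from 76.3% to 64.7% at 8 h. Signal over background was not analysed here.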

Other observations

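Of the 8 arrays that the submitters left out, 8 lay outside the range of the kept arrays for Slc1a4, 6 for Slc7a1 and 4 for Slc1a5. The count was 3 for Slc7a11 and Slc6a19, 2 for Slc7a5 and Slc38a2, and 0 for Slc3a2. The share over all genes was not counted, so these counts cannot be read as particular to the transporters. Slc1a4, the alanine and serine exchanger, lay between -4.78 and -2.15 in 7 of the 8, all below the lowest kept array at -1.49, and at 2.16 in the other, MycON water at 32 h. Slc1a5, the glutamine exchanger, lay between 2.92 and 3.89 in the same 7 arrays and at 0.06 in the other. Of the 52 kept arrays only the MycOFF exendin-4 array of 72 h, replicate 2, reached such a Slc1a5 value (3.25), with Slc1a4 at 0.17. The cationic carrier Slc7a1 lay below the lowest kept array in 6 of the 8, down to -2.54, while Slc38a2 lay between 0.24 and 1.67. Over all probe sets the SD was 0.969 to 1.40 within the arrays left out, and 0.284 to 0.949 within those kept.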
